A study of Mus musculus with 6 samples.

Results

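The regions described here are intronic differentially methylated regions (DMRs) that lost methylation between infant and young adult lung endothelial cells (EC), starting from an intermediate level and ending at a reduced but still detectable one. They were selected on the measured group means themselves. A DMR belonged to the set when it lay on chromosomes 1 to 19, its infant mean was below 70% and above its young adult mean, its young adult mean was at least 20%, and its midpoint lay within a curated RefSeq gene, outside every exon and more than 1 kb from every transcription start site (TSS). Of the 18333 DMRs in the list, 1822 met these criteria (9.94%), and they made up 29.3% of the 6220 intronic DMRs that lost methylation. They are called intermediate DMRs below. The other intronic loss DMRs served as comparison, namely 2304 with a young adult mean below 20% (low-end DMRs) and 2094 with an infant mean of at least 70% and a young adult mean of at least 20% (high-start DMRs), together with 4193 intronic DMRs that gained methylation.

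EC were sorted from lungs of C57BL/6N mice as CD31+CD34+ cells negative for PTPRC, LYVE1, LY76 and PDPN, from infants of 8 to 10 days and from young adults of 8 to 12 weeks, with 3 samples per age. The methods describe the mice as female, and no transgene or treatment is given for either group. DNA methylation was measured by bisulfite sequencing of whole genomes from tagmented DNA (T-WGBS). Bisulfite turns unmethylated cytosine into a base that is read as thymine, and the level of a CpG is the percentage of its reads that still show cytosine. The list gives each group's mean over the 3 samples as calculated by the authors. Values per sample were not analysed here, so no difference between the ages could be set against the spread between samples, no p-value is given, and the coverage behind a region is unknown. Intervals are 95% intervals that reflect the number of regions only and treat regions as independent, although many share a gene. The sorted population is a mixture of EC, and a changed methylation level cannot be told apart from a changed share of cells that carry it. No expression values were analysed here, so the identity of the sorted cells could not be checked on marker RNA.

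Methylation of cytosine in CpG pairs is copied at each cell division by a maintenance methyltransferase, and it is lost when copying fails over divisions or when TET enzymes oxidise it. Outside promoters most CpGs of a mammalian genome are methylated, and stretches with reduced methylation in introns are often enhancers bound by transcription factors. An intermediate level of a CpG in the bulk DNA of a sample means that methylated and unmethylated copies occurred side by side, either in different cells or on the 2 alleles of a cell. The levels given here are means over the CpGs of a region and over samples. An intermediate mean can therefore also come from CpGs or samples that differ from each other.

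As examples with many CpGs, the sequences of 6 intermediate DMRs are printed, which in 6 of the genes with the most such regions were those of at most 300 bp with the most CpGs. They are given from the plus strand of GRCm38 (mm10), from the first to the last CpG of the DMR, with each CpG in capitals. Repeat-masked bases are not marked. None of them overlapped an exon, whereas the Prickle2 region that met the same rule had 125 of 287 bases in an exon and is not printed.
Smad6: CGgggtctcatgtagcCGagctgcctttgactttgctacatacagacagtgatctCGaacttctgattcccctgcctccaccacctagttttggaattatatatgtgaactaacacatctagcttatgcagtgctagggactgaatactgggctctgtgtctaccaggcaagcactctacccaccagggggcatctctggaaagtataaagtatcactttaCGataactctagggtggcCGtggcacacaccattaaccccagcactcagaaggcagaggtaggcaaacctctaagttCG
Prkce: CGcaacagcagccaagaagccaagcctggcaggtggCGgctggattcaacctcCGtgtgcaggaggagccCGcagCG
Pitpnc1: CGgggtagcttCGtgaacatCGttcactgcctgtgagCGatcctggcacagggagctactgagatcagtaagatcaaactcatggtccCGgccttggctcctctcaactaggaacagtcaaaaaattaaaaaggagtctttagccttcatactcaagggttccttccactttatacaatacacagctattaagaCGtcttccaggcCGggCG
Adgrl2: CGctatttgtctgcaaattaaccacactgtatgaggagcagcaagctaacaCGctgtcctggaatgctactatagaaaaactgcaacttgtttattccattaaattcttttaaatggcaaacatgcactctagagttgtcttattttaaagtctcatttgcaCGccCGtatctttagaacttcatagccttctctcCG
Tmcc3: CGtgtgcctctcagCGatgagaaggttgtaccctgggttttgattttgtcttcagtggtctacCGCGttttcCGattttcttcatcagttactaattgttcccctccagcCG
Itpkb: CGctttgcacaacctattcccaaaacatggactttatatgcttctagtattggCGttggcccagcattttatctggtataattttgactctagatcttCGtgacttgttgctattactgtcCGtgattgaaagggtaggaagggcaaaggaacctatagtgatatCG
In these regions the CpGs were unevenly spaced. At 5 to 8 per region they were more numerous than the median of 3 over all intermediate DMRs. The Prkce region held 5 CpGs in 77 bp, and the Smad6 region held 6 CpGs in 300 bp. The Pitpnc1 region (chr11:107463629-107463840) lay in intron 1, 6.99 kb downstream of the TSS, and its 8 CpGs went from a mean methylation of 61.4% in the infant to 31.6% in the young adult group. The Smad6 region (chr9:63993592-63993891) went from 69.8% to 35.5%, the Prkce region (chr17:86367058-86367134) from 69.5% to 39.0%, the Adgrl2 region (chr3:148905877-148906074) from 61.0% to 32.3%, the Tmcc3 region (chr10:94501821-94501932) from 60.8% to 28.4%, and the Itpkb region (chr1:180370881-180371047) from 59.6% to 23.3%.

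Intermediate DMRs retained slightly less than 50% of their infant methylation. The median of the authors' means was 61.4% at the infant age (interval 60.9 to 61.8%) and 27.7% at the young adult age (27.2 to 28.0%). The median difference was -31.4 percentage points (-31.8 to -30.8). As a share of the infant level, the median retained in young adult EC was 47.1%, compared with 25.1% in low-end and 55.7% in high-start DMRs. These levels are what the regions were chosen by and are given as description. The cut-offs also cap the loss of an intermediate DMR at 50 points, so its size cannot be compared freely with that of the other classes, whose medians were -32.2 points in low-end and -34.9 points in high-start DMRs.

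Within the set the infant level leaned towards the upper cut-off. The infant mean lay between 60 and 70% in 1034 regions, between 50 and 60% in 604, between 40 and 50% in 172 and below 40% in 12. The young adult mean leaned towards the lower cut-off, with 614 regions between 20 and 25%, 518 between 25 and 30%, 568 between 30 and 40%, 117 between 40 and 50% and 5 above 50%. Losses of 30 to 40 points were found in 850 regions and losses of 20 to 30 points in 698, whereas 189 lost 40 to 50 points and 85 lost 10 to 20 points. The levels ran across both cut-offs without a gap. A young adult mean of 20 to 21% was found in 130 intermediate DMRs, and 129 intronic loss DMRs with an infant mean below 70% lay just outside at 19 to 20%. An infant mean of 69 to 70% was found in 124 intermediate DMRs, and 96 DMRs lay just outside at 70 to 71%. The regions next to the cut-offs, named here for that position, were Smad6 (chr9:63966925-63966983) and Col4a1 (chr8:11276452-11276658) just inside with young adult means of 20.01%, Ifnar1 and Tango6 just outside with 19.99%, St3gal2 and Myo10 just inside with infant means of 69.97% and 69.99%, and Rnf145 and Fuca1 just outside with 70.02%.

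**Figure D1:**
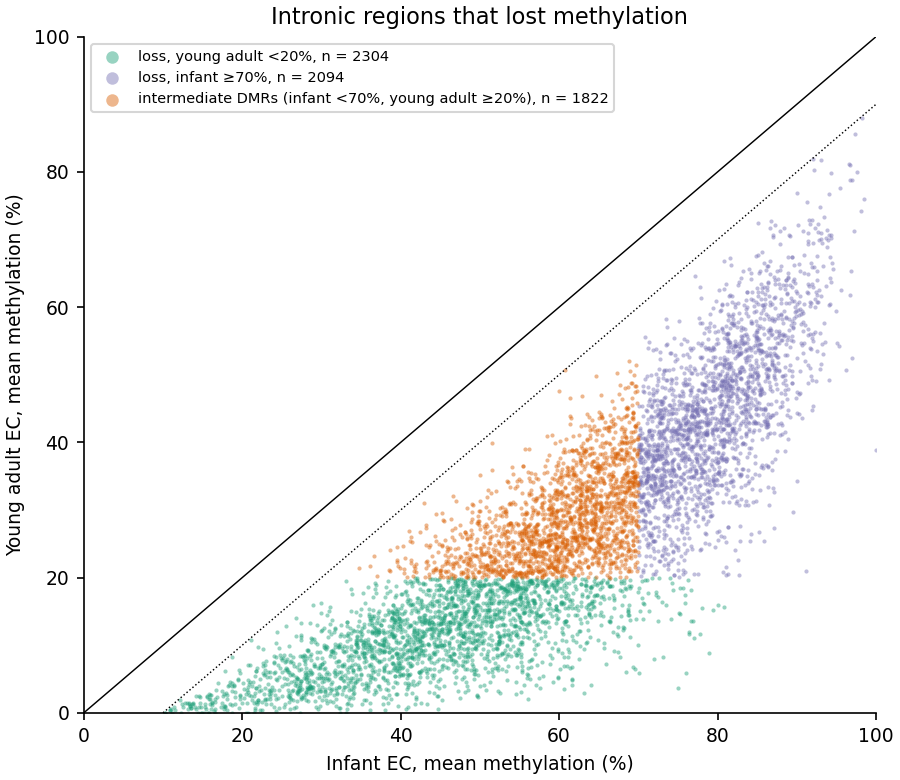
Mean methylation of the 6220 intronic DMRs that lost methylation, in infant EC (horizontal axis, %) and young adult EC (vertical axis, %), 1 point per DMR, with the line of equal levels (solid) and the line of a 10-point loss (dotted). The 1822 intermediate DMRs (orange) form the middle of a continuous cloud between the 2304 low-end DMRs (green) and the 2094 high-start DMRs (violet).

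The 5 intermediate DMRs with the largest loss all started close to the infant cut-off and ended close to the young adult one, as the cut-offs require of losses of that size. The largest loss, -48.9 points, was in intron 1 of Trarg1, which encodes a membrane protein of glucose transporter trafficking (chr11:76681313-76681585, 6 CpGs). It went from 69.8% to 20.9%. Plxna1, a semaphorin receptor, followed with -48.4 points in intron 26 (chr6:89323411-89323672, 8 CpGs), then Cyth3, an exchange factor for Arf GTPases, with -48.1 points in intron 1 (chr5:143679985-143680212, 5 CpGs), Stxbp6, a SNARE-binding protein, with -48.0 points in intron 1 (chr12:45053318-45053357, 3 CpGs), and Arhgap26, a GTPase-activating protein, with -47.8 points in intron 11. The 5 smallest losses were spread over the range of infant levels. Cpt1a, the enzyme that admits long-chain fatty acids to mitochondria, went from 60.8% to 50.7% in intron 1, a difference of -10.1 points. The differences were -11.6 points in Ank3, an ankyrin, -11.9 points in Rab7, a GTPase of late endosomes, -12.4 points in B3gntl1 and -13.4 points in F11r, a junctional adhesion molecule. The F11r region had an infant mean of 34.8%.

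The 3 regions with the most CpGs lost methylation over stretches of about a kilobase. A region in intron 1 of Rcsd1, whose product binds an actin capping protein, spanned 21 CpGs (chr1:165701867-165702829) and went from 69.6% to 35.0%. In intron 1 of Il4ra, which encodes a chain of the interleukin-4 receptor, 17 CpGs (chr7:125553806-125554709) went from 59.6% to 22.7%. In intron 5 of the ETS transcription factor gene Ets1, 17 CpGs (chr9:32730777-32731815) went from 54.5% to 20.8%. Such long regions were rare. Of the intermediate DMRs, 971 (53.3%) held 3 CpGs, the fewest the authors allowed, and 83 held at least 8. The loss was larger where a region held more CpGs, with a median of -29.5 points for 3 CpGs, -32.0 points for 4, -33.3 points for 5 to 7 and -35.6 points for at least 8.

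Intermediate DMRs were wider and poorer in CpGs than the other intronic regions that lost methylation. Their median width was 149 bp (142 to 157 bp), against 132 bp (125 to 137 bp) in low-end and 131 bp (125 to 139 bp) in high-start DMRs. The CpG density was 2.50 per 100 bp (2.40 to 2.61), against 2.94 (2.86 to 3.03) in low-end and 2.88 (2.79 to 3) in high-start DMRs. The intervals of the intermediate DMRs do not meet those of either class for width or density. Intronic gain DMRs had a density of 2.54 (2.46 to 2.63), which overlapped that of the intermediate DMRs, but 78.1% of them held 3 CpGs. The direction was the same inside genes that held both classes, though not in each gene. In the 489 genes with intermediate and low-end DMRs, the median density of the intermediate DMRs was lower in 277 genes and higher in 212. In the 447 genes with intermediate and high-start DMRs, it was lower in 265 genes and higher in 181, and the width was larger in 267 and smaller in 179. Against low-end DMRs the width was larger in 266 genes and smaller in 221.

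Intermediate DMRs also had a slightly lower GC content and more often some repeat-masked sequence than low-end DMRs. The median GC content of a 200 bp window around the midpoint was 47.5% in intermediate DMRs (47.5 to 48%), 48.5% in low-end (48.5 to 49%), 48% in high-start (47.5 to 48.5%) and 48% in gain DMRs (48 to 48.5%). Windows with the GC content and CpG frequency of a CpG island were uncommon, at 0.933% of intermediate DMRs (0.583 to 1.49%), 1.56% of low-end DMRs (1.13 to 2.16%), 2.01% of high-start DMRs (1.49 to 2.70%) and 3.17% of gain DMRs (2.68 to 3.75%). Some repeat-masked sequence was present in 49.8% of intermediate DMRs (47.5 to 52.1%), compared with 43.6% of low-end DMRs (41.6 to 45.7%) and 48.9% of high-start DMRs (46.8 to 51.1%). This share counts any masked base in a region and was not adjusted for the larger width of intermediate DMRs. At least 50% of the bases were masked in 6.26% of intermediate DMRs (5.23 to 7.46%), in 4.86% of low-end DMRs (4.06 to 5.82%) and in 9.41% of high-start DMRs (8.23 to 10.7%). By this measure the intervals of intermediate and low-end DMRs overlapped. The midpoint rule left 54 intermediate DMRs (2.96%) with at least 1 base in an exon.

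Intermediate DMRs lay farther from start sites than low-end DMRs, and at distances whose interval overlapped that of high-start DMRs. The median distance to the nearest TSS was 18.03 kb (16.8 to 19.4 kb), against 14.1 kb (13.0 to 15.2 kb) in low-end, 17.5 kb (16.05 to 18.9 kb) in high-start and 27.3 kb (26.1 to 28.6 kb) in gain DMRs. Between 1 and 10 kb from a TSS lay 33.8% of intermediate DMRs (31.6 to 35.96%) and 41.7% of low-end DMRs (39.7 to 43.7%). In genes with both classes, the intermediate DMRs lay farther downstream of the TSS than the low-end DMRs in 265 genes and nearer in 224. With 1 intermediate DMR per gene, the one with the most CpGs, the median distance to the nearest TSS was 14 kb. No low-end value was taken at that setting, so it cannot be set against the 14.1 kb above. Intron 1 held 769 intermediate DMRs (42.2%, 39.96 to 44.5%), compared with 45.6% of low-end, 44.3% of high-start and 32.4% of gain DMRs. Introns 2 and 3 held 20.4% and 10.9% of the intermediate DMRs, and later introns 26.5%, against 39.3% of gain DMRs. The loss hardly varied along the gene, with a median of -31.5 points in intron 1, -30.9 points in intron 2, -30.8 points in intron 3 and -31.4 points in later introns. It was -32.4 points within 10 kb of a TSS, -31.0 points between 10 and 100 kb and -29.1 points beyond, where 110 regions lay. The nearest TSS belonged to the host gene in 77.1% of cases.

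**Figure D2:**
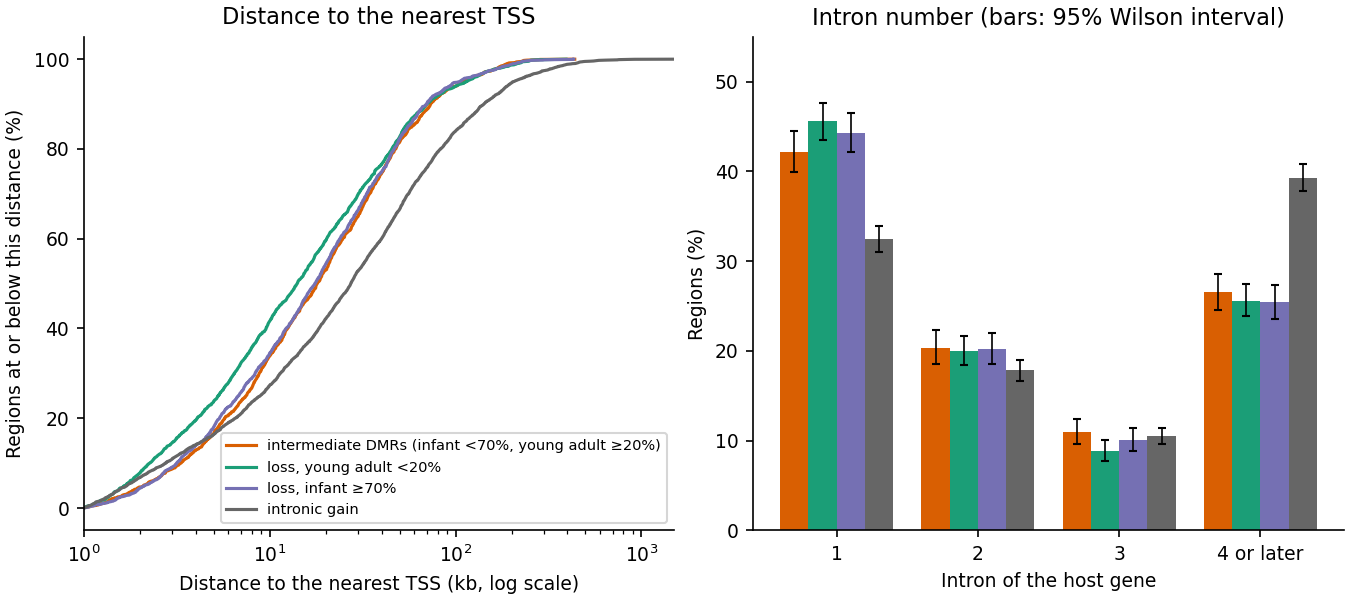
Left, share of regions (%) at or below a distance to the nearest TSS (kb, log axis), for intermediate DMRs (orange), low-end DMRs (green), high-start DMRs (violet) and intronic gain DMRs (grey). Right, share of regions (%) in intron 1, 2, 3 or a later one, with 95% Wilson intervals. The curve of the intermediate DMRs follows that of the high-start DMRs, and gain DMRs lie farther from start sites and more often in intron 4 or later.

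Most intermediate DMRs had another loss nearby, although fewer than among high-start DMRs. Another DMR that lost methylation lay within 10 kb of 1205 of them (66.1%, 63.9 to 68.3%), compared with 68.8% (66.9 to 70.7%) of low-end and 74.9% (73.0 to 76.7%) of high-start DMRs, and 8.75% of intronic gain DMRs. Within 1 kb the share was 26.0% of intermediate (24.1 to 28.1%), 32.0% of low-end (30.1 to 33.9%) and 38.0% of high-start DMRs (35.96 to 40.1%). The median distance to the nearest loss DMR was accordingly longer for intermediate DMRs, at 3.82 kb (3.40 to 4.35 kb), than for low-end DMRs, at 2.64 kb (2.37 to 2.94 kb), or high-start DMRs, at 1.73 kb (1.53 to 2.06 kb). The median loss was -32.3 points in the regions with a loss neighbour within 10 kb and -29.9 points in the 617 without. The median number of CpGs also differed, at 4 with and 3 without such a neighbour. Whether the difference in loss remains at equal CpG number was not tested.

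No single class prevailed as the nearest neighbour. It was a low-end DMR for 28.0% of intermediate DMRs, a high-start DMR for 25.3%, another intermediate DMR for 22.9% and an intronic gain DMR for 11.4%. The shares of the loss classes follow the order of class size, with 2304 low-end, 2094 high-start and 1822 intermediate DMRs. An intermediate DMR was the nearest neighbour for 21.8% of low-end and 20.6% of high-start DMRs. When intronic loss DMRs of a gene at most 10 kb apart were joined, 532 runs of at least 3 regions resulted. Of the intermediate DMRs, 883 (48.5%) lay in these runs, and 398 runs held at least 1 of them. All 3 classes were present in 240 runs, and 7 runs consisted of intermediate DMRs alone. Intermediate DMRs stood at the end of a run in 35.0% of cases, low-end DMRs in 35.8% and high-start DMRs in 27.5%. Of the 1471 pairs of neighbours at most 10 kb apart in a gene with an intermediate DMR, 606 joined it to a high-start DMR, 600 to a low-end DMR and 265 to another intermediate DMR. How many pairs of each kind the class sizes alone would give was not calculated. Over 3224 such pairs of intronic loss DMRs of any class, which share a gene and lie a median of 1.64 kb apart, Pearson's r was 0.197 for the infant and 0.204 for the young adult mean, as a description across regions. The median difference between neighbours was 14.4 points for the infant means and 13.4 points for the young adult means.

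Intermediate DMRs occurred in 975 of 24963 autosomal genes, which is 3.91% of genes. Among genes of at least 50 kb, 12.9% (620 of 4796) held one, and the median length was 73.4 kb for genes with an intermediate DMR and 13.7 kb for all genes, so that every gene count below has to be read against gene length. In 634 genes there was 1 intermediate DMR, and 66 genes held at least 5, together 496 regions (27.2%). This concentration was below that of the other classes, of which 36.8% of low-end and 42.4% of high-start DMRs lay in genes with at least 5 of their own class. Low-end DMRs were present in 489 of the 975 genes, high-start DMRs in 447 and both in 321. Of all 24963 autosomal genes, 1088 held a low-end and 889 a high-start DMR, counts that are not matched for gene length. In 360 genes the intermediate DMRs, 408 in all, were the only intronic loss. None of these genes held more than 3, a number reached among others by Grb2, which links growth factor receptors to Ras, by Mprip, a myosin phosphatase partner, by Zmynd11, a reader of histone methylation, by Cmtm4 and by 4930523C07Rik. Apart from Grb2, these were named after their values were seen. A gain DMR was present in 293 of the 975 genes (30.1%). The share of all genes with a gain DMR is not given here, so this value has no background. Intermediate DMRs were found on all 19 autosomes, where their share among intronic loss DMRs ranged from 23.5% (chromosome 6) to 35.0% (chromosome 8).

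The 25 genes with the most intermediate DMRs held 258 of them (14.2%), and 21 of these genes contained no gain DMR. The last 10 of them held 8 intermediate DMRs each and were ranked by their number of loss DMRs. Nedd4l, Shroom3 and Nkd1, the last named after its values were seen, also held 8 and fell outside the 25 by that order, with 2, 7 and 0 gain DMRs. They include regulators of small GTPases, which control the actin cytoskeleton, protein kinases C, adhesion receptors and transcription factors. All 25 genes also held low-end and high-start DMRs.

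**Figure D3:**
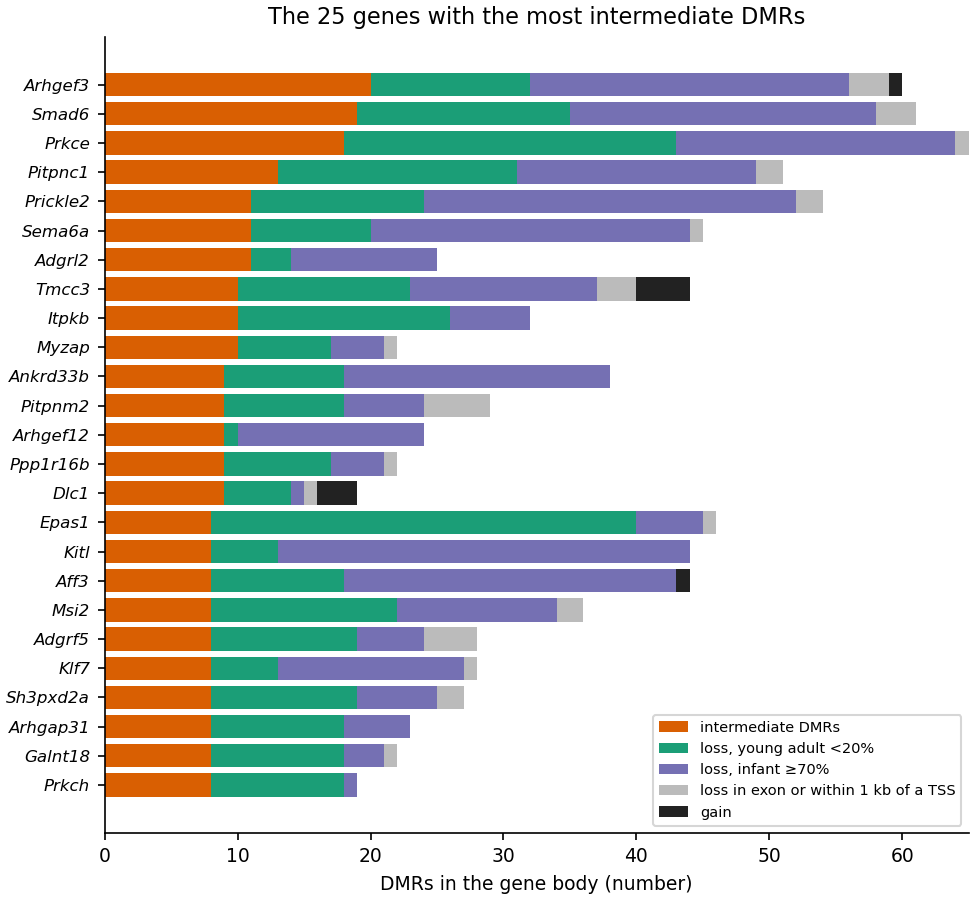
Number of DMRs (horizontal axis) in the body of each of the 25 genes with the most intermediate DMRs, split into intermediate DMRs (orange), low-end DMRs (green), high-start DMRs (violet), other loss DMRs in exons or near a TSS (light grey) and gain DMRs (black). The count of intermediate DMRs runs from 20 in Arhgef3 to 8 in the last 10 genes, and the mixture of the other classes differs from gene to gene.

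Arhgef3, which encodes an exchange factor that activates RhoA, held the most, with 20 intermediate DMRs beside 12 low-end and 24 high-start DMRs. They extended over 214 kb of the 260 kb gene, and 11 lay in intron 4. Their infant means ranged from 46.6% to 69.5% and their young adult means from 20.9% to 35.8%. The median difference was -33.8 points, the largest loss -47.7 points in intron 2 and the smallest -24.6 points. A region of 12 CpGs in intron 4 (chr14:27349633-27350238) went from 61.5% to 24.8%.

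Smad6 encodes an inhibitory SMAD, which restrains signalling by BMP and TGF-beta receptors. Its 68.98 kb body held 19 intermediate, 16 low-end and 23 high-start DMRs and no gain DMR. All 58 formed a single run of 59.5 kb, the longest by number of regions. Of the intermediate DMRs, 17 lay in intron 3. Their median level went from 62.5% to 28.4%, and the losses ranged from -17.5 to -46.4 points. The smallest loss was found 15.9 kb from the TSS, where 4 CpGs went from 61.3% to 43.9%. A region of 12 CpGs near the far end of intron 3 (chr9:63957501-63958115) went from 65.1% to 23.9%.

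Prkce, the gene of protein kinase C epsilon, held 18 intermediate DMRs among 64 intronic losses. They were spread over 426 kb in 5 introns, with 8 in intron 1. Their median difference was -31.7 points, and losses ranged from -18.8 to -42.5 points. A pair of neighbouring regions in intron 1, at chr17:86253300-86253759 with 7 CpGs and at chr17:86254008-86254419 with 13 CpGs, went from 64.5% to 23.7% and from 66.01% to 25.7%. In Arhgef3, Smad6 and Prkce alike, intermediate DMRs were interspersed with low-end and high-start DMRs along the gene.

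**Figure D4:**
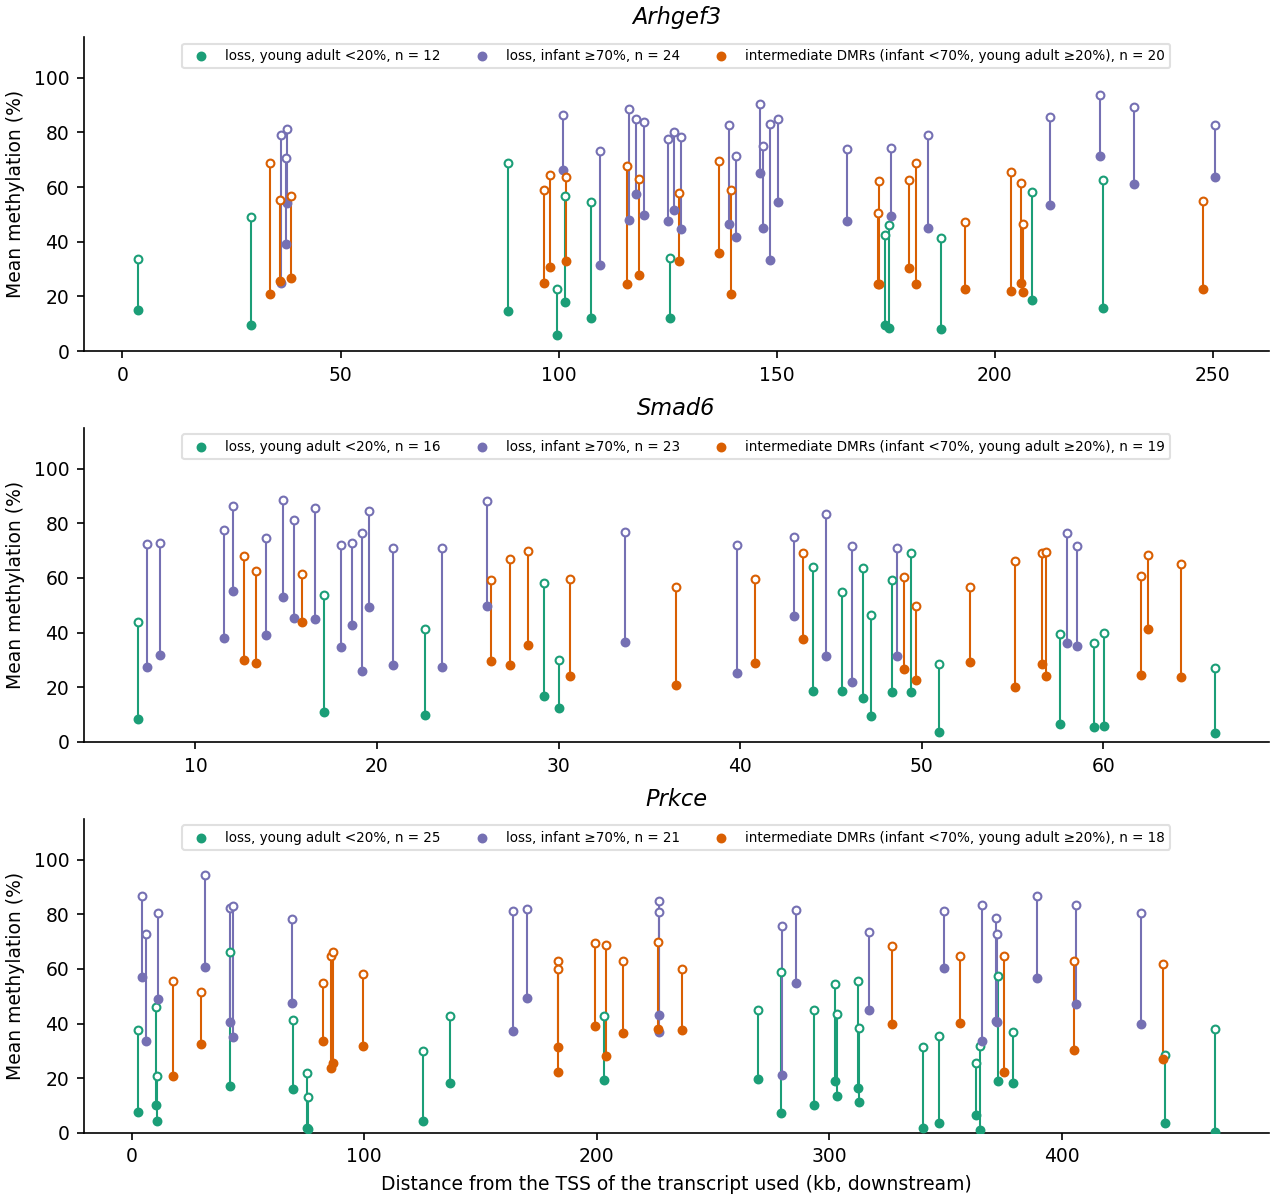
Mean methylation (%) of all intronic loss DMRs of Arhgef3, Smad6 and Prkce against the distance of the midpoint from the TSS (kb), with the infant mean as an open circle, the young adult mean as a filled circle and a line joining them. The 20, 19 and 18 intermediate DMRs (orange) lie between low-end DMRs (green) and high-start DMRs (violet) over most of each gene.

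The other genes at the head of the ranking differed mainly in where their intermediate DMRs lay. Pitpnc1, which encodes a phosphatidylinositol transfer protein, held 13, of which 8 lay in intron 1, with a median difference of -35.7 points. The planar cell polarity gene Prickle2 held 11 beside 28 high-start DMRs, and Sema6a, a transmembrane semaphorin, held 11, of which 9 were in intron 1. In Adgrl2, an adhesion receptor of the latrophilin family, all 11 lay in intron 1, and they made up 44.0% of its 25 intronic losses. All 10 of Itpkb, the kinase that phosphorylates inositol trisphosphate, lay in intron 2, and all 8 of Msi2, an RNA-binding protein of stem cells, in intron 5. Tmcc3, a membrane protein of the endoplasmic reticulum, held 10 with a median difference of -37.7 points and was 1 of the 4 genes with a gain DMR. Myzap, a protein of cell junctions, held 10 spread over 6 introns, and their young adult means lay between 20.3% and 24.6%, a narrower span than their infant means of 49.2% to 68.8%. Both spans are bounded by the cut-offs, and the gene also held 7 low-end and 4 high-start DMRs.

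The balance of the 3 classes also differed between genes. Dlc1, a GTPase-activating protein, was the gene among the 25 in which intermediate DMRs prevailed most, with 9 of 15 intronic losses (60%), all of them at least 266 kb from the TSS of the longest coding transcript. Myzap followed with 47.6%, Adgrl2 with 44.0%, Ppp1r16b, a regulatory subunit of a protein phosphatase, with 42.9% and Prkch, a protein kinase C, with 42.1%. At the other end, Epas1, a hypoxia-inducible transcription factor, held 8 intermediate and 32 low-end DMRs (17.8%), and Kitl, the ligand of the KIT receptor, held 8 intermediate and 31 high-start DMRs (18.2%). Arhgef12, an exchange factor for RhoA, held 9 intermediate, 14 high-start and 1 low-end DMR, with a median difference of -38.2 points. Aff3, a nuclear protein linked to transcript elongation, held 8 intermediate and 25 high-start DMRs. Ankrd33b and Pitpnm2 held 9 each, and Adgrf5, an adhesion receptor of the lung, Klf7, a Krüppel-like factor, Sh3pxd2a, a scaffold of podosomes, Arhgap31, a GTPase-activating protein for Rac and Cdc42, and Galnt18, a glycosyltransferase, held 8 each. Over the 25 genes the median difference per gene ranged from -29.1 points in Sh3pxd2a to -38.2 points in Arhgef12, and in Nedd4l, tied with the last of them, it was -25.8 points. Genes with at least 5 intermediate DMRs had a median of -33.0 points over their regions (-33.8 to -32.2), and genes with a single one -30.3 points (-30.8 to -29.7). The regions of the former held a median of 4 CpGs and those of the latter 3. Whether the difference in loss remains at equal CpG number was not tested.

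Gene groups known from the endothelium were examined by how many of their genes held an intermediate DMR, beside the 3.91% of all genes and the 12.9% of genes of at least 50 kb, called long genes here. The groups overlap, so that Cdh5 and a few others count in more than 1. The lists were drawn up with earlier results of these data known, no test of the groups was made, and the median difference over all intermediate DMRs, -31.4 points, is the value to set beside those of the groups. Over all intronic losses, 29.3% were intermediate DMRs. The share was lower for TGF-beta (25.8%), semaphorins (25.5%), VEGF and related signalling (23.3%), transcription factors (21.4%), lung capillary genes (20.8%) and endothelial markers (15.9%). It was highest for Notch (52.6%) and ranged from 30.1% to 41.7% in the other groups, apart from the remaining marker lists.

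Of 51 genes of the TGF-beta family, comprising receptors, SMADs and modulators, 9 (17.6%), with 5 of the 24 genes of at least 50 kb (20.8%), held 46 intermediate DMRs with a median of -33.7 points. Smad6 contributed 19. Nedd4l, a ubiquitin ligase that acts on SMADs, held 8 with a smaller median of -25.8 points. Smurf2, another ubiquitin ligase of the pathway, held 4, all between -31.8 and -35.2 points, and Smad7, the second inhibitory SMAD of the pathway, held 3 beside 15 low-end DMRs. Of 30 semaphorin, plexin and neuropilin genes, 8 (26.7%), with 5 of the 14 long genes (35.7%), held 26 intermediate DMRs with a median of -33.3 points. Sema6a led with 11, followed by the co-receptor Nrp1 with 4, all in intron 2, the membrane-anchored Sema7a with 3 in intron 1 and no low-end DMR in the gene, and Plxna1 with 2 at a median of -43.9 points.

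In the Notch pathway 6 of 27 genes (22.2%), with 3 of the 7 long genes (42.9%), held 10 intermediate DMRs with a median of -29.9 points, and these were 52.6% of the 19 intronic losses of the pathway. Over all intronic losses the share was 29.3%. Notch1, a receptor, held 3 in intron 2, where the median went from 56.1% to 27.6%. The co-activators Maml2 and Maml3 held 2 each with medians of -23.5 and -22.1 points, and Dll4, a ligand of tip cells, held 1 with a difference of -34.3 points. The list of VEGF, angiopoietin, FGF and PDGF signalling also included Epas1, a hypoxia-inducible transcription factor. In this list 8 of 45 genes (17.8%), with 7 of the 23 long genes (30.4%), held 21 regions. Of these, 8 were in Epas1, 4 in Flt1, a VEGF receptor, 3 in Grb2 and 2 in Pdgfb, the ligand that recruits pericytes. The Wnt pathway had 5 intermediate DMRs in 4 of 66 genes (6.06%) and in 2 of its 21 long genes (9.52%), which is below the 12.9% of all long genes. These were Tcf7 with 2 and Lrp5, Ctnnb1 and Ryk with 1 each. Nkd1, named above among the genes with many intermediate DMRs, was not on this list. The shares of the group therefore depend on which genes the list holds. The Ctnnb1 region, in the beta-catenin gene, had a young adult mean of 43.5%, well above the median of the set. In the Hippo group 6 of 29 genes (20.7%), with 5 of the 16 long genes (31.25%), held 9, with a median of -27.7 points. Stk4, the kinase at the head of the cascade, held 3, and Vgll4, a TEAD cofactor, held 2.

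Among transcription factor families with endothelial roles, 18 of 65 genes (27.7%), or 14 of the 35 genes of at least 50 kb (40%), held 40 intermediate DMRs with a median of -33.5 points. Klf7 held 8, Ets1 held 6 and Meis1, a homeobox factor, held 4 with a median of -40.7 points. Foxp1, a forkhead factor, held 3 with a median of -36.5 points in a gene that also carried 16 gain DMRs. Of 54 genes of junctions and cell adhesion, 18 (33.3%) held 40, and 13 of the 36 genes of at least 50 kb (36.1%) were among them. Parvb, an integrin-linked adaptor, held 6 in intron 1, all between -32.3 and -41.2 points. Ctnnd1, the gene of p120-catenin, also held 6. Cdh5, which encodes VE-cadherin, the adherens junction cadherin of EC, held 4 with a median of -39.7 points, from 65.9% to 25.5%, and Itga1, an integrin chain, held 3. In basement membrane and matrix genes 7 of 133 (5.26%) held 11 intermediate DMRs, and the share of 6 of the 66 long genes (9.09%) was below the 12.9% of all long genes. There were 94 intronic gain DMRs in the same genes. Of the 11 intermediate DMRs, 3 lay in intron 1 of Col4a1 and 1 in Col4a2, the neighbouring collagen IV genes, 3 in Mmp28, a matrix metalloproteinase, and 1 in Adamts9.

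Regulators of small GTPases formed the group with the most intermediate DMRs. Of 183 exchange factors and GTPase-activating proteins for small GTPases, 39 (21.3%) held 110 of them, with a median of -32.0 points, and 35 of the 117 genes of at least 50 kb (29.9%) were among these. Arhgef3, Arhgef12, Dlc1 and Arhgap31 led. Among actin and cytoskeletal adaptors the share was 25 of 55 genes (45.5%), or 24 of the 47 genes of at least 50 kb (51.1%), and they held 66 intermediate DMRs with a median of -31.2 points. Shroom3, an actin-binding protein that drives apical constriction, held 8, all in intron 2, with a median of -37.4 points. Myo10, a myosin of filopodia, held 7, Sptbn1, a spectrin chain, held 7 with a median of -26.6 points, and Wasf2, an activator of actin branching, held 6. A group of genes of lipid signalling and second messengers, with protein kinases C, lipid kinases, phospholipases, phosphodiesterases, adenylyl cyclases, kinases regulated by cyclic nucleotides and their anchors, and phosphatidylinositol transfer proteins, had 80 intermediate DMRs in 23 of 139 genes (16.5%) and in 20 of its 87 long genes (22.99%). Prkce held 18 of them, Pitpnc1 13, Pitpnm2 9 and Prkch 8.

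Chromatin and DNA methylation enzymes with their cofactors held 31 intermediate DMRs in 17 of 114 genes (14.9%) and in 13 of the 54 long genes (24.1%). Smarca2, an ATPase of the SWI/SNF remodeller, held 6 with a median of -35.8 points. Hdac7, a histone deacetylase expressed in EC, held 3 beside 8 low-end DMRs, and Dnmt3a, a de novo DNA methyltransferase, held 2, whose median went from 66.4% to 35.9%, in a gene that also carried 5 gain DMRs. Of 39 genes of lung capillary EC and lipid uptake, 11 (28.2%) held 45 intermediate DMRs, and 8 of the 12 genes of at least 50 kb (66.7%) were among these. They were led by Prickle2, Kitl and Adgrf5 and followed by Ece1, the endothelin-converting enzyme, with 4. These genes carried 3 intronic gain DMRs.

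Marker genes of EC and of other lung cells were counted in the same way. Of 8 endothelial marker genes 4 held 7 regions, with 4 in Cdh5 and 1 each in Erg, an ETS factor, Pecam1, the gene of the sort marker CD31, and Emcn, an endothelial sialomucin. In Erg and Pecam1 they were accompanied by 10 and 8 low-end DMRs, and the Emcn region, from 62.1% to 35.1%, was the only DMR in that gene. Of 6 epithelial markers 1, Hopx, held 1 region with a difference of -40.8 points. There was none in the 6 leukocyte, 7 mural and fibroblast and 4 lymphatic marker genes. Set against the 3.91% of all genes, these lists are too short to read an absence from them, and most of the marker genes outside the endothelial list are under 50 kb.

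The letters of 16 transcription factor motifs were counted on both strands in the 200 bp window around each midpoint, and a match is a description of the sequence, not a binding site. Windows of close neighbours can overlap, and the letters of HIF and of the E-box CACGTG share their last bases. An intermediate DMR held on average 1.13 kinds of motif, against 1.09 over all DMRs, and 30.4% held none. The ETS letters CAGGAAG were found in 10.9% of intermediate DMRs (9.52 to 12.4%) and in 10.9% of all DMRs, with 13.3% of low-end (11.96 to 14.7%) and 8.88% of high-start DMRs (7.74 to 10.2%) on either side. The FOX letters TGTTTAC were found in 6.81% of intermediate DMRs (5.74 to 8.06%), 5.86% of low-end DMRs (4.97 to 6.89%), 5.54% of high-start DMRs (4.64 to 6.60%), 3.15% of gain DMRs (2.66 to 3.72%) and 4.36% of all DMRs. The GATA letters AGATAAG were found in 4.77% (3.89 to 5.85%), in 4.51% of low-end (3.74 to 5.44%), 4.06% of high-start (3.29 to 4.99%) and 2.41% of gain DMRs (1.99 to 2.92%), and in 3.37% of all DMRs. For both motifs the 3 classes of intronic loss overlapped in their intervals. Gain DMRs held the nuclear receptor letters AGGTCA more often (15.4%, 14.3 to 16.5%) and the NFI letters TTGGCA less often (10.2%, 9.30 to 11.1%) than intermediate DMRs, with 11.7% (10.3 to 13.3%) and 13.7% (12.2 to 15.3%).

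The remaining motifs differed little from the list as a whole. The KLF letters CCACACC were present in 5.54% of intermediate DMRs and 4.69% of all DMRs, the SMAD box GTCTGNC in 13.1% and 12.2%, the AP-1 letters TGANTCA in 6.42% and 6.54%, the E-box CAGCTG in 10.9% and 12.3%, and the E-box CACGTG in 4.56% and 4.21%. For the RUNX letters TGTGGTT the shares were 4.17% and 4.14%, for the TEAD letters ACATTCC 3.29% and 2.98%, for the NFAT letters TGGAAAA 4.94% and 5.01%, for the STAT letters TTCNNNGAA 6.42% and 6.52%, for the HIF letters TACGTG 3.40% and 3.28%, and for the SOX letters ACAATGG 2.31% and 2.78%. The loss was of similar size with and without most motifs. Its median was -31.0 points with and -31.4 points without the ETS letters, and -31.3 and -31.4 points for the FOX letters. The widest gap among the 16 motifs was that of the SOX letters, with -34.3 points in 42 regions and -31.3 points in the others.

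**Figure D5:**
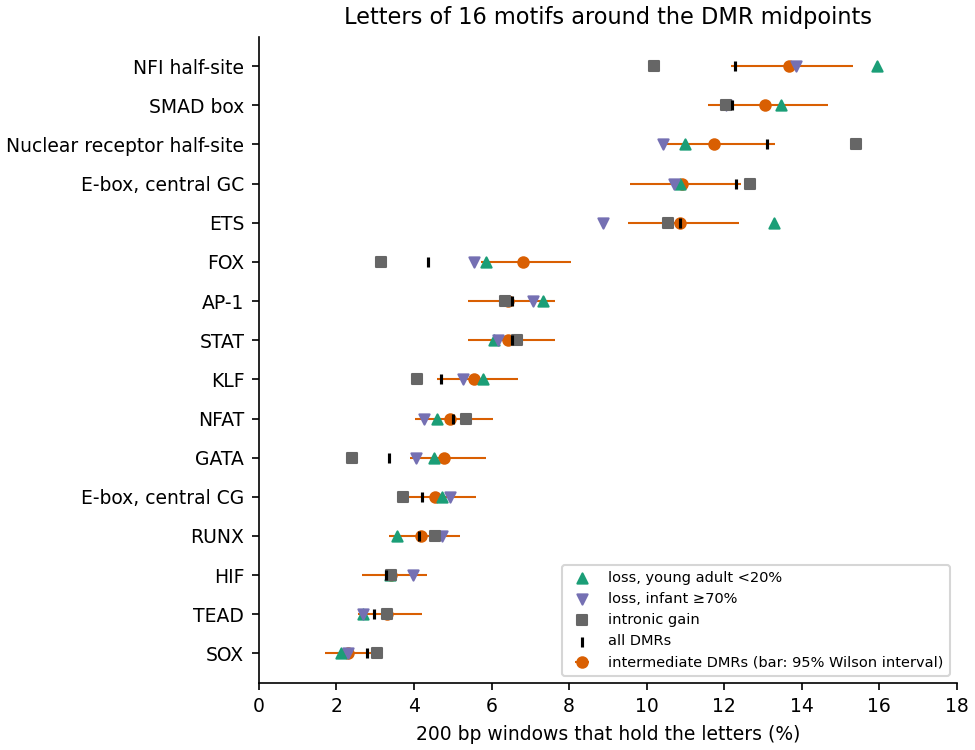
Share (%) of 200 bp windows that hold the letters of each of 16 motifs, for intermediate DMRs (orange circles with 95% Wilson intervals), low-end DMRs (green), high-start DMRs (violet), intronic gain DMRs (grey squares) and the whole list (black ticks). For most motifs the interval of the intermediate DMRs includes the share over all DMRs, and the FOX and GATA letters lie above it, with the points of the other intronic loss classes above it too.

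Some intermediate DMRs held several motifs within a short sequence. Among regions of at most 300 bp with at least 3 kinds of motif, the 4 with the most kinds per base are printed from the plus strand of mm10, with the motif letters of either strand in capitals.
Arhgef3: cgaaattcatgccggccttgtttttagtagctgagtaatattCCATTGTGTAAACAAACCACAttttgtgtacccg
Inpp5d: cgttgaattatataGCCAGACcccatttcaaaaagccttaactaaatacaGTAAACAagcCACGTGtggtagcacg
Abcg1: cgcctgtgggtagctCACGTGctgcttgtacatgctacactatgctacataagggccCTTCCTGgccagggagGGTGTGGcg
Vps13d: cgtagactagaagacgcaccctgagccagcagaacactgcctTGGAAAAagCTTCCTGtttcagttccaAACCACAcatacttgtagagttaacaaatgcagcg
The Arhgef3 region (chr14:27177874-27177949, intron 2) carried SOX, FOX and RUNX letters end to end with no base between them, and its methylation fell from 68.7% to 20.9%, the largest loss among the intermediate DMRs of that gene. The region of Inpp5d, a lipid phosphatase gene (chr1:87664554-87664629), with a SMAD box, FOX letters and an E-box, went from 58.3% to 36.4%. The region of Abcg1, a cholesterol transporter gene (chr17:31108493-31108574), with an E-box, ETS and KLF letters, went from 56.5% to 32.4%. The region in intron 67 of Vps13d, a lipid transfer protein gene (chr4:145013374-145013477), with NFAT, ETS and RUNX letters, went from 43.6% to 20.1%.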

How the data were processed

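T-WGBS was performed by the authors on sorted lung EC of 3 infant and 3 young adult C57BL/6N samples. The authors aligned reads to mm10 with BWA 0.6.1, removed duplicates, and called DMRs with bsseq in R 3.2.2 without smoothing (base calling used bcl2fastq 1.8.4, per the submitters' processing notes). CpGs needed 8-fold coverage in at least 2 samples per group, and a DMR at least 3 consecutive CpGs with p under 0.05 and group means at least 10% apart. In the deposited list, methylation is a fraction per group, which the authors averaged over CpGs and samples. DMRs were called on the same samples, so their differences are those of a selection. The depth behind each value is unknown. The authors' nearest-promoter column was not used.

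Fractions were multiplied to percent, and the difference is the young adult minus the infant mean. Start and end were the first and last CpG in 18333 of 18333 DMRs and are printed with both bases of each CpG. DMRs were placed by midpoint on 45657 curated transcripts of 26089 genes (GRCm38.p6, RefSeq release 108.20200622). The host gene was the coding gene holding the midpoint, or the longest of several (27 regions lay in at least 2 genes), and introns were counted in its longest coding transcript. Sequences are from RefSeq GRCm38.p6. Shares have 95% Wilson intervals, and medians have exact 95% order-statistic intervals. Python 3.11.15, pandas 2.3.3, numpy 2.4.6, scipy 1.17.1 and pysam 0.24.0 were used. Placement in introns and exons was tested on positions in annotated transcripts, and the motif search on planted letters. The other steps were not tested in this way.

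Regions, gene lists, motifs and the naming rule were chosen with earlier results of these data known. Named were the 25 genes with the most regions, up to 4 genes per list with the most regions, the 5 largest and 5 smallest losses and the 3 regions with the most CpGs. Printed sequences were, in each of the 8 leading genes outside chromosome 18, the region of at most 300 bp with the most CpGs, and the 4 regions with the most kinds of motif per base. A few items that met these rules are not reported here. The minimum of 3 kinds of motif, and symbols removed from prefix-based lists because they belong to other families, were set after the list was opened. Settings tried instead were other cut-offs for either mean, a minimum loss of 20 points, at least 5 CpGs, 2 kb from a TSS, protein-coding transcripts only, 1 region per gene and joining of regions at most 500 bp apart.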

Additional observations from a re-analysis of the deposited data

How the results depend on the processing

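Under 10 alternatives, 16 values moved by more than 1.5 times a count or outside the interval of a value. The number of genes, 975, is fixed by construction with 1 region per gene and could hardly change when close regions were joined, so it says nothing about stability there. The number of regions was 1208 with a young adult mean of at least 25%, 441 with at least 5 CpGs and 975 with 1 region per gene. The median difference was -30.1 points with an infant mean below 65%, -32.4 points below 75%, -30.2 points with a young adult mean of at least 25%, -32.2 points with at least 15%, and -34.0 points with at least 5 CpGs. The median distance to a TSS was 20.3 kb with protein-coding transcripts only and 14 kb with 1 region per gene. The median number of CpGs was 6 with at least 5 CpGs and 4 with 1 region per gene, for which the region with the most CpGs was taken. The share with another loss DMR within 10 kb was 63.9% with an infant mean below 65%, 78.5% with at least 5 CpGs and 51.3% with 1 region per gene. Genes with a region numbered 307 with at least 5 CpGs. The share in intron 1 stayed within its interval in the 10 alternatives. No paired analysis was possible because the list holds group means and no values per sample, and for the same reason no sample could be left out. The groups were compared without an error per region, and regions under the authors' coverage minimum could not enter.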
